A study of Mus musculus with 2 samples.

Results

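The genes of the splicing machinery were examined in liver RNA of normal and diabetic mice. The set holds every gene of the deposited table whose symbol marks an SR protein (Srsf or the older Sfrs), an SF3A or SF3B subunit (Sf3a, Sf3b), a small nuclear ribonucleoprotein (snRNP) protein (Snrp), an hnRNP (Hnrn), a pre-mRNA processing factor (Prpf), an LSm protein (Lsm) or a U2AF subunit (U2af). This rule, which uses names and no measured value, took 63 of the 8551 listed genes. The livers came from 9-week-old male mice on a C57BL/6 background, either wild type or db/db, and were taken about 3 h after the lights came on. Mice of the db/db line lack a working leptin receptor in the whole body, overeat, and become obese and diabetic, so the diabetic state cannot be told apart from obesity in this comparison. There was 1 library per group. The study's methods name several mice per group from a pair of suppliers and do not say whether RNA was pooled, which supplier gave which group, or whether the groups were littermates. The leptin receptor gene itself was not analysed here.

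Splicing removes introns from pre-mRNA in a large particle, the spliceosome, which assembles anew on each intron. The U1 snRNP pairs with the 5' splice site, while U2AF, SF3A, SF3B and the U2 snRNP settle on the 3' splice site and branch point. The U4/U6.U5 tri-snRNP then joins, and the particle rearranges around Prpf8 to cut and join the RNA. SR proteins bind exons and mostly favour the use of nearby splice sites, hnRNPs coat the transcript and often hold sites back, and the balance between them shapes alternative splicing in liver as in other tissues.

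Expression was counted with digital gene expression tags. The cDNA was cut with DpnII at GATC and the short tag next to the last cut site was sequenced, so that a transcript is meant to be read at 1 place and its level to carry no length term. The labels name random hexamers as primers for the cDNA, so tags from sites further upstream are possible. The tags themselves were not analysed here, but the tag each gene should give can be predicted as the last GATC of its longest RefSeq-linked transcript with the 17 bases after it (GENCODE transcripts, GRCm38). All 63 members had such a site. The predicted tag lay in the 3' UTR of 48 members and in the coding sequence of 15, a median of 309 bases before the transcript end (range 41 to 1997). It occurred at GATC sites of no other gene for 59 members. The exceptions were Lsm3, Sf3b4 and U2af1l4, each shared with 1 other gene, and Sfrs2ip, whose tag was found in 42 other genes, so the values of these 4 are less certain. For 14 members RefSeq-linked transcripts ended in more than 1 different tag, and for these the gene value may sum isoforms. The tags of 12 members that differed at least 1.5-fold between the libraries, and of Hnrnph1 as an hnRNP that did not, are shown with the DpnII site in capitals.
Hnrnpul1: GATCacgcagtcttagaaatg
Hnrnpa2b1: GATCattaataaagcttttct
Hnrnpm: GATCggatggccaccggcctg
Hnrnpab: GATCtgagctttgtataacaa
Hnrnpl: GATCtgcgatgaactgggagt
Hnrnph1: GATCactgactcttggtcaaa
Lsm10: GATCatttgtatctcaaatct
Snrpa1: GATCagggccgagtgatgagg
Snrpe: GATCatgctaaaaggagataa
Sf3a2: GATCcaccctcaggcaccagg
Prpf38b: GATCagaagtccttttagcat
Prpf8: GATCcccaaagcctggagcct
Sfrs13a: GATCacatttctttgttggag

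On GRCm38 the 3' UTR tags of this group were at chr6:51461951-51461971 on the minus strand (Hnrnpa2b1, exon 11 of 12), chr11:51600163-51600183 minus (Hnrnpab, exon 7 of 7), chr11:50385904-50385924 plus (Hnrnph1, exon 14 of 14) and chr4:126098415-126098435 plus (Lsm10, exon 2 of 2). The same held for Prpf38b at chr3:108903299-108903319 minus (exon 6 of 6), Prpf8 at chr11:75509308-75509328 plus (exon 42 of 42) and Sfrs13a at chr4:135869850-135869870 plus (exon 6 of 6). Coding tags lay at chr7:25726739-25726759 minus (Hnrnpul1, exon 11 of 15), chr17:33649907-33649927 minus (Hnrnpm, exon 14 of 16), chr1:133604052-133604072 minus (Snrpe, exon 5 of 5) and chr10:80804616-80804636 plus (Sf3a2, exon 9 of 9). Those of Hnrnpl (chr7:28820746-28821235 plus, from exon 10) and Snrpa1 (chr7:66071320-66074336 plus, from exon 8) ran across an exon junction, so that their GATC and last bases lie in different exons. Hnrnpul1, Hnrnpa2b1 and Hnrnpab each had 2 different RefSeq tags and Sfrs13a had 3, while the other 9 had 1.

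A value, called TPM in the deposited table, is the share of a library's clean tags that a gene received, on the usual TPM scale. They rise in equal steps, and 1 step is 1 read, which gave 10278531 clean tags for the normal and 13508232 for the diabetic library. Members had 13 to 1289 reads in the normal library (median 82) and 14 to 1995 in the diabetic library (median 137). Fewer than 20 reads stood behind 5 members in the normal and 3 in the diabetic library, and no member was at 3 reads or fewer. Each ratio of diabetic to normal TPM is given with a 95% Clopper-Pearson interval, which covers counting error only, since reads without molecular identifiers are not independent molecules and no difference has a replicate check. The median log2 ratio of all listed genes was 0.25, and 4 other scalings moved every log2 ratio down by 0.25 to 0.31, so members are also described relative to this median. Hepatocyte markers were at a summed 8089.4 TPM in the normal and 7661.6 TPM in the diabetic library (5 of 6 markers listed, from Apob at a log2 ratio of −2.45 to Cps1 at 1.28), so the defining markers of the labelled tissue were present in both. In bulk RNA fewer cells of a type and less RNA per cell cannot be told apart. Macrophage markers moved from 326.5 to 193.7 TPM (8 of 11 listed, 4 at least 1.5-fold lower and 1 higher, from C1qc at a log2 ratio of −1.80 to C1qb at 0.60). The sums for endothelial markers were 118.6 and 106.4 TPM (8 of 8 listed, from Clec4g at −0.64 to Kdr at 0.89), and those for stellate markers 51.8 and 67.6 TPM (5 of 7, from Reln at −0.85 to Col1a1 at 1.60). Cholangiocyte markers summed to 61.5 and 107.3 TPM (3 of 5, mainly Spp1 at a log2 ratio of 0.85), T and NK markers to 2.0 and 1.6 TPM (1 of 6), B cell markers to 5.4 and 3.8 TPM (2 of 4) and markers of dividing cells to 5.0 and 7.3 TPM (3 of 7). The part of these cell type differences in the values of the splicing genes was not tested.

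Between its lower and upper quartile the set spanned log2 ratios of −0.064 to 0.56, against −0.30 to 0.81 for all listed genes. In the diabetic library 15 of the 63 (23.8%) were at least 1.5-fold higher, against 34.4% of all listed genes, and 5 (7.94%) were at least 1.5-fold lower, against 15.3%. Under the 4 other scalings the skew was gone, with 8 or 9 members higher (12.7% to 14.3%, all genes 21.9% to 24.0%) and 8 lower (12.7%, all genes 23.6% to 25.6%). With a false discovery rate (FDR) under 0.001 added, from an exact test on the reads that compares the 2 libraries and not the conditions, 11 members (17.5%) stayed higher, against a background of 22.9%, and 2 (3.17%) stayed lower, against 8.19%. The counting interval lay wholly above the all-gene median for 13 members (20.6%, background 29.0%) and wholly below it for 12 (19.0%, background 28.5%). Log2 ratios ran from −1.02 to 1.47 with a median of 0.27, and 34 members were above the all-gene median and 29 below it. Together the members held 0.249% of the reads of all listed genes in each library, from 922.8 TPM in the normal and 1104.8 TPM in the diabetic library. The share of members past 1.5-fold was thus below the background in both directions under the deposited and the 4 other scalings.

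**Figure D1:**
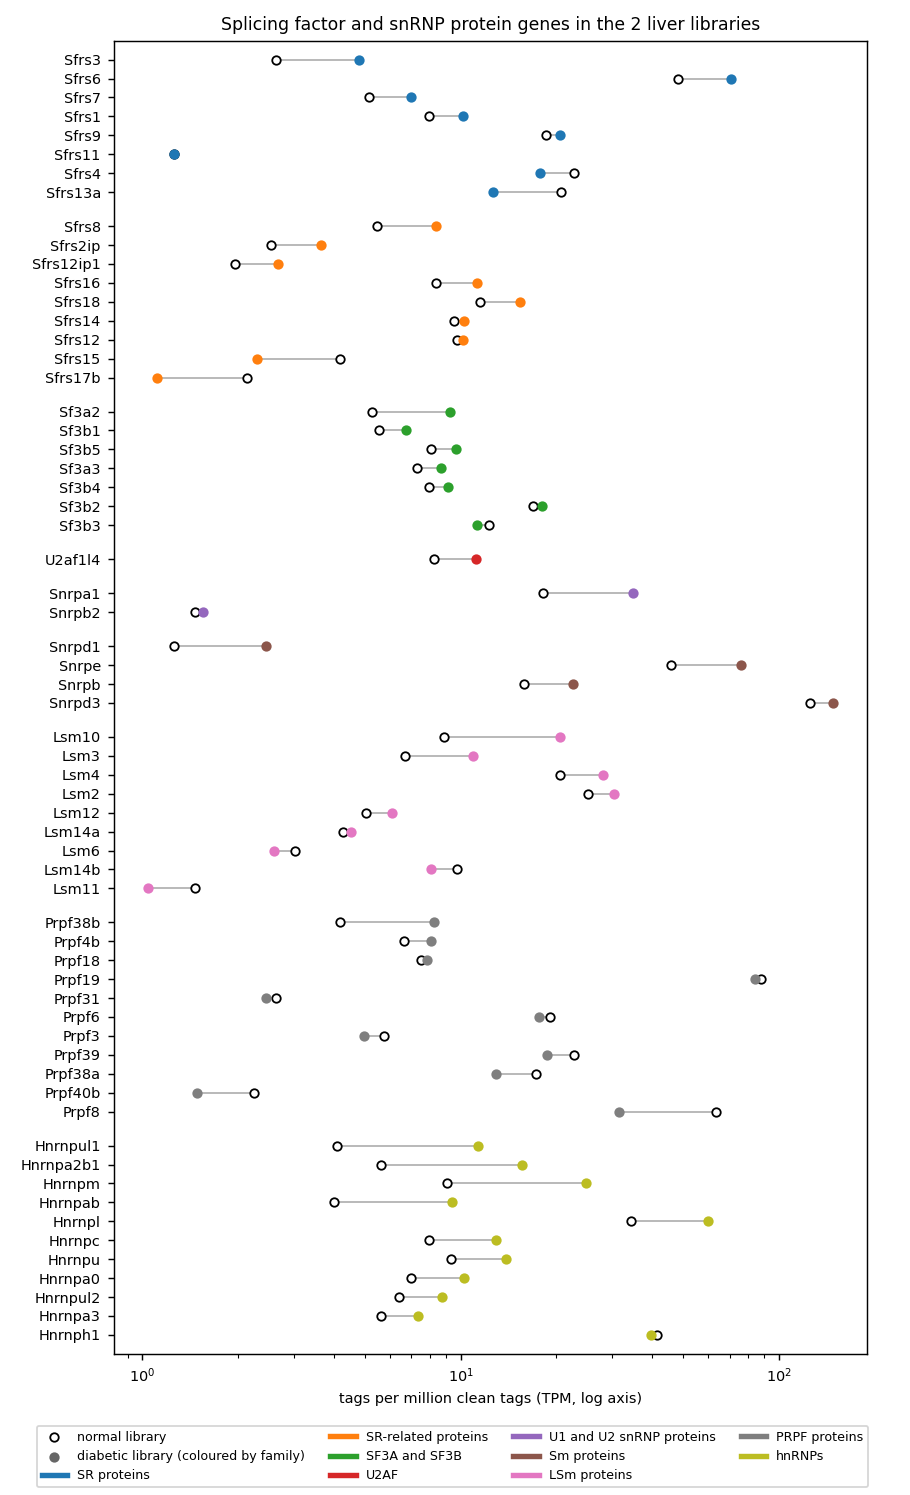
TPM of 62 of the 63 splicing genes in the normal library (open circles) and the diabetic library (filled circles, coloured by family) on a log axis, 1 row per gene and 1 library per group. Most pairs lie close together, while Hnrnpul1, Hnrnpa2b1 and Hnrnpm sit far to the right in the diabetic library and Prpf8 moves from 63.63 to 31.39 TPM.

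The Sm proteins form the ring that encloses the U1, U2, U4 and U5 RNAs, and the 4 listed Sm genes had log2 ratios from 0.24 to 0.95, with 2 at least 1.5-fold higher in the diabetic library (1 under the 4 other scalings) and 0 lower. Snrpe, an abundant ring subunit, was at 45.82 TPM (471 reads) in the normal and 76.25 TPM (1030 reads) in the diabetic library, 1.66-fold higher (log2 0.73, interval 0.58 to 0.90). Snrpd1 was 1.94-fold higher, but from 13 and 33 reads, and its interval of −0.01 to 2.00 reached 0. Under the 4 other scalings Snrpe dropped under 1.5-fold (log2 0.43 to 0.48), so the 1 Sm gene still past it was the shallow Snrpd1. Snrpb, which encodes the ring subunits B and B', was at 15.86 and 22.58 TPM (log2 0.51, interval 0.23 to 0.79), short of 1.5-fold. Snrpd3 had the highest level of all members, 125.41 TPM in the normal and 147.69 TPM in the diabetic library, or 13.6% and 13.4% of the members' summed TPM. Its log2 ratio of 0.24 (interval 0.13 to 0.34) was near the all-gene median and turned below 0 under each of the 4 scalings. Of the U2 snRNP proteins, Snrpa1 (the A' protein) was at 18.1 TPM (186 reads) in the normal and 34.72 TPM (469 reads) in the diabetic library, 1.92-fold higher (log2 0.94, interval 0.69 to 1.19). Its partner Snrpb2 (the B'' protein), with which it binds the same stem-loop of U2 RNA, had 15 and 21 reads and a log2 ratio of 0.09 (interval −0.93 to 1.15), too few reads to set it apart from 0 in either direction. The U1 proteins Snrpa and Snrpc were not analysed here.

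LSm proteins build rings like those of the Sm proteins around the U6 RNA, and as a cytoplasmic ring they act in mRNA decay. Of the 9 LSm genes, 2 (22.2%, all listed genes 34.4%) were at least 1.5-fold higher in the diabetic library and 0 lower (all listed genes 15.3%). Their median log2 ratio was 0.26. Under the 4 other scalings 1 was higher (all listed genes 21.9% to 24.0%) and 1 lower (all listed genes 23.6% to 25.6%). Lsm10, a ring subunit of the U7 snRNP that processes histone mRNAs rather than introns, was at 8.85 TPM (91 reads) and 20.58 TPM (278 reads), 2.33-fold higher (log2 1.22, interval 0.87 to 1.57). Lsm11, the other LSm protein particular to the U7 ring, was at 1.46 and 1.04 TPM from 15 and 14 reads, with a log2 ratio of −0.49 and an interval of −1.65 to 0.66. The 2 U7 genes therefore had intervals that did not overlap, at very unequal depth. Among the 4 listed subunits of the U6 ring, Lsm3 was at 6.71 and 10.96 TPM (log2 0.71, interval 0.29 to 1.14), Lsm4 at 20.53 and 27.98 TPM (0.45), Lsm2 at 25.2 and 30.35 TPM (0.27) and Lsm6 at 3.02 and 2.59 TPM (−0.22, from 31 and 35 reads). Lsm2 turned below 0 under median-ratio scaling only. The larger relatives Lsm12, Lsm14a and Lsm14b, which have roles outside the spliceosome, had log2 ratios of 0.26, 0.08 and −0.27, of which Lsm14a turned below 0 under each of the 4 scalings and Lsm12 under the median-ratio and upper-quartile scalings.

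SF3A and SF3B are the protein blocks that hold the U2 snRNP on the branch point. Of the 7 listed genes 1 (14.3%, all listed genes 34.4%) was at least 1.5-fold higher in the diabetic library (0 under the 4 other scalings) and 0 lower (all listed genes 15.3%). This was Sf3a2, an SF3A subunit, at 5.25 TPM (54 reads) in the normal and 9.25 TPM (125 reads) in the diabetic library, 1.76-fold higher (log2 0.82, interval 0.35 to 1.31). Sf3b1, the large subunit that clamps the branch point helix, was at 5.55 and 6.74 TPM (log2 0.28, interval −0.21 to 0.78). The other SF3 genes were Sf3b5 (log2 0.26), Sf3a3 (0.25), Sf3b4 (0.19), Sf3b2 (0.09) and Sf3b3 (−0.12), and the interval of each spanned 0. Sf3a3, Sf3b4 and Sf3b2 turned below 0 under each of the 4 scalings, Sf3b5 under the median-ratio and upper-quartile scalings, and Sf3b1 under median-ratio scaling. U2AF, which reads the polypyrimidine tract and the AG of the 3' splice site, was represented by U2af1l4 alone, a relative of its small subunit, at 8.27 and 11.18 TPM (log2 0.44, interval 0.04 to 0.84). Sf3a1, U2af1 and U2af2 were not analysed here.

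The PRPF family, which is spread over all stages of splicing, lay mostly on the lower side. Of its 12 genes 10 were below the all-gene median, and the median log2 ratio was −0.11. At least 1.5-fold lower in the diabetic library were 2 (16.7%, all listed genes 15.3%), and 1 was higher (8.33%, all listed genes 34.4%). Prpf8, the U5 protein at the heart of the catalytic centre, was at 63.63 TPM (654 reads) in the normal and 31.39 TPM (424 reads) in the diabetic library. It was thus 2.03-fold lower (log2 −1.02, interval −1.20 to −0.84), the lowest log2 ratio of all 63 members, and 1.27 below the all-gene median. Prpf40b, a U1-associated protein, was 1.51-fold lower, but its 23 and 20 reads gave an interval of −1.54 to 0.33. For the listed proteins of the U4/U6 part and the bridge to U5 the intervals spanned 0. That of Prpf6 lay wholly below the all-gene median, and that of Prpf31 was wide, from 27 and 33 reads. Prpf6 was at 19.07 and 17.62 TPM (log2 −0.11, interval −0.39 to 0.17), Prpf31 at 2.63 and 2.44 TPM (−0.11, interval −0.88 to 0.69) and Prpf3 at 5.74 and 4.96 TPM (−0.21, interval −0.74 to 0.32). Prpf19, the ubiquitin ligase of the complex that activates the spliceosome, was the second most abundant member in the normal library at 87.95 TPM (904 reads). In the diabetic library it was at 84.24 TPM (1138 reads), with a log2 ratio of −0.06 and an interval of −0.19 to 0.07.

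The 2 Prpf38 genes went in different directions. Prpf38b was at 4.18 TPM (43 reads) and 8.22 TPM (111 reads), 1.97-fold higher in the diabetic library (log2 0.98, interval 0.45 to 1.52). Prpf38a, a tri-snRNP-associated factor needed for activation, was at 17.22 TPM (177 reads) and 12.96 TPM (175 reads), with a log2 ratio of −0.41 (interval −0.72 to −0.10). Prpf39, a U1-associated protein, was at 22.67 and 18.73 TPM (−0.28, interval −0.54 to −0.01). The kinase Prpf4b and the second-step factor Prpf18 had log2 ratios of 0.29 and 0.07, the first below 0 under median-ratio scaling and the second under each of the 4 scalings. The counting interval lay wholly below the all-gene median for 5 of the 12 PRPF genes (all listed genes 28.5%) and wholly above it for 1 (all listed genes 29.0%).

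**Figure D2:**
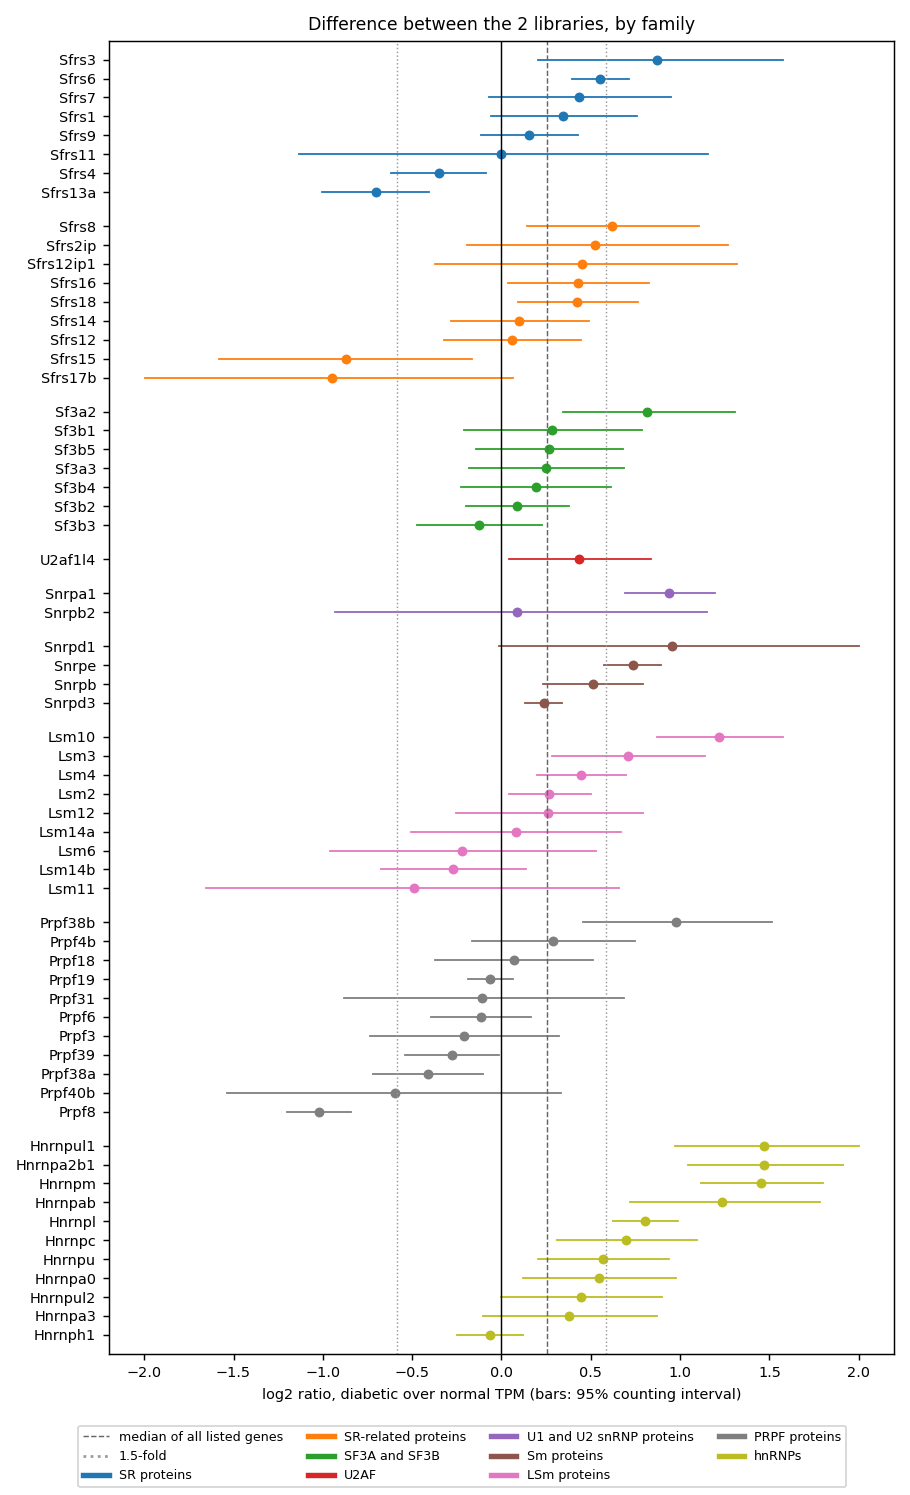
Log2 ratio of diabetic to normal TPM for 62 of the 63 genes with its 95% counting interval, grouped by family. The solid line is 0, the dashed line the median of all listed genes (0.25) and the dotted lines 1.5-fold in either direction, and 10 of 11 hnRNPs lie right of the dashed line while most PRPF genes lie left of it.

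SR proteins carry RNA-binding domains and a tail rich in arginine and serine, and the 8 listed here split evenly around the all-gene median, 4 above and 4 below. Sfrs3, a small SR protein that also acts in mRNA export, was at 2.63 TPM (27 reads) and 4.81 TPM (65 reads), 1.83-fold higher in the diabetic library (log2 0.87, interval 0.21 to 1.58). Sfrs6 was the most abundant SR gene, at 48.16 TPM (495 reads) and 70.7 TPM (955 reads), and its 1.47-fold difference (log2 0.55, interval 0.40 to 0.71) fell just short of the threshold. Sfrs13a, now named Srsf10, which acts as a general repressor of splicing when dephosphorylated, was at 20.63 TPM (212 reads) and 12.66 TPM (171 reads), 1.63-fold lower (log2 −0.70, interval −1.0 to −0.41). Sfrs4 was at 22.67 and 17.77 TPM (−0.35, interval −0.62 to −0.09), so that the 2 related genes Sfrs4 and Sfrs6 lay on opposite sides of 0. Sfrs1, the best studied SR protein, was at 7.98 and 10.14 TPM (log2 0.35, interval −0.06 to 0.76), and Sfrs7, Sfrs9 and Sfrs11 had log2 ratios of 0.43, 0.15 and 0.00. Sfrs9 and Sfrs11 were below 0 under each of the 4 scalings.

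The older Sfrs symbols also cover 9 proteins with arginine and serine rich stretches that are not SR proteins in the strict sense. Their median log2 ratio was 0.42, with 1 (11.1%, all listed genes 34.4%) at least 1.5-fold higher and 2 (22.2%, all listed genes 15.3%) lower. None of these 3 passed the FDR of 0.001. Sfrs8, now Sfswap, a splicing regulator related to the fly suppressor-of-white-apricot, was at 5.45 and 8.37 TPM (1.54-fold higher, log2 0.62, interval 0.14 to 1.11). Sfrs15, now Scaf4, which binds the tail of RNA polymerase II, was at 4.18 and 2.29 TPM (1.83-fold lower, log2 −0.87, interval −1.58 to −0.17) from 43 and 31 reads. Sfrs17b, now Akap17b, was at 2.14 and 1.11 TPM from 22 and 15 reads (log2 −0.95, interval −2.00 to 0.07). The remaining 6, Sfrs2ip, Sfrs12ip1, Sfrs16, Sfrs18, Sfrs14 and Sfrs12, had log2 ratios from 0.06 to 0.52, of which Sfrs14 (0.10) and Sfrs12 (0.06) were below 0 under each of the 4 scalings.

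The hnRNPs lay mostly on the higher side. Of the 11 genes, 6 (54.5%) were at least 1.5-fold higher in the diabetic library, against 34.4% of all listed genes, and 0 lower, against 15.3%. Above the all-gene median were 10, and the median log2 ratio was 0.70. All 6 also passed the FDR of 0.001, as did 22.9% of all listed genes in that direction. Hnrnpul1, an hnRNP U-like protein with roles in transcription and DNA repair, was at 4.09 TPM (42 reads) and 11.33 TPM (153 reads), 2.77-fold higher (log2 1.47, interval 0.97 to 2.00). Hnrnpa2b1, an RNA carrier and splicing repressor, was at 5.64 TPM (58 reads) and 15.62 TPM (211 reads), also 2.77-fold higher (log2 1.47, interval 1.04 to 1.91). Hnrnpm, a regulator of alternative exons, was at 9.05 TPM (93 reads) and 24.8 TPM (335 reads), 2.74-fold higher (log2 1.45, interval 1.12 to 1.80). Hnrnpab was at 3.99 TPM (41 reads) and 9.4 TPM (127 reads), 2.36-fold higher (log2 1.24, interval 0.72 to 1.78). These 4 had the highest log2 ratios of all 63 members and stayed at least 1.5-fold higher under each of the 4 scalings.

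Hnrnpl, which binds CA-rich RNA, was the most abundant of the 11 genes named Hnrn in the diabetic library. It was at 34.34 TPM (353 reads) in the normal and 60.04 TPM (811 reads) in the diabetic library, 1.75-fold higher (log2 0.81, interval 0.62 to 0.99). Hnrnpc, which binds uridine tracts and keeps U2AF off cryptic exons, was at 7.98 and 12.96 TPM (1.62-fold higher, log2 0.70, interval 0.31 to 1.10). Under the 4 other scalings Hnrnpl and Hnrnpc dropped under 1.5-fold, leaving 4 of the 11 past it, against 21.9% to 24.0% of all listed genes. Hnrnpu, the nuclear scaffold protein, and Hnrnpa0 were at 1.48-fold and 1.46-fold, and Hnrnpul2 and Hnrnpa3 had log2 ratios of 0.45 and 0.38. Hnrnph1, which binds G-rich RNA, was the exception, at 41.35 TPM (425 reads) and 39.53 TPM (534 reads), with a log2 ratio of −0.06 and an interval of −0.25 to 0.12 that lay wholly below the all-gene median. The rule misses hnRNPs under older symbols. Hnrpdl, at 175.22 and 102.75 TPM, had a log2 ratio of −0.77 (interval −0.87 to −0.67), and Hnrpll, at 19.75 and 25.32 TPM, had one of 0.36, so the count of 0 lower hnRNPs holds for the 11 genes named Hnrn only. Hnrnpa1 and Hnrnpk were not analysed here.

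**Figure D3:**
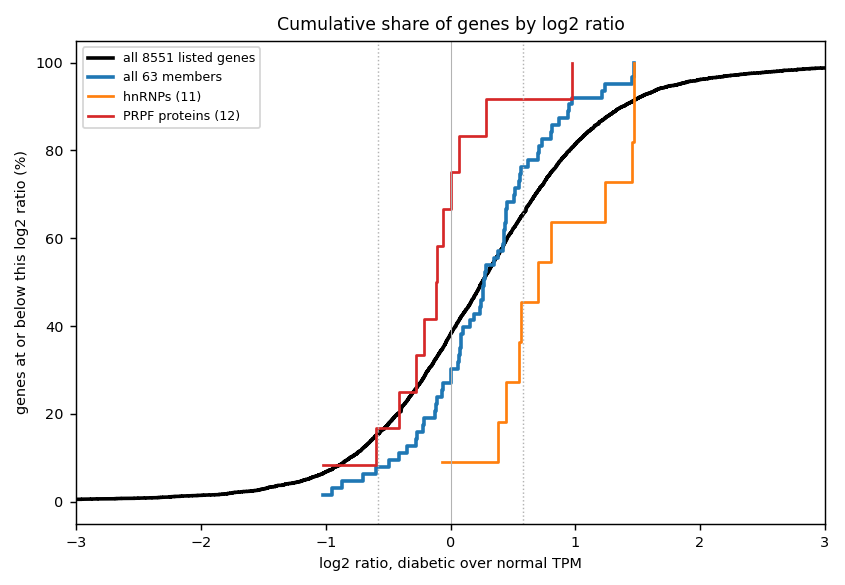
Cumulative share of genes at or below each log2 ratio of diabetic to normal TPM, for all 8551 listed genes, all 63 splicing genes, the 11 hnRNPs and the 12 PRPF genes, shown from −3 to 3. The curve of the splicing genes is steeper than that of all genes, with the PRPF curve to its left and the hnRNP curve to its right (medians −0.11 and 0.70), and dotted lines mark 1.5-fold.

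The calls near the threshold rest on small differences. Just past 1.5-fold were Prpf40b (1.51-fold lower), Sfrs8 (1.54-fold higher) and Hnrnpc (1.62-fold higher). Just short of it were Hnrnpu (1.48-fold), Sfrs6 (1.47-fold) and Hnrnpa0 (1.46-fold), all 3 hnRNP or SR genes with counting intervals wholly above 0. Among the 49 members with a mean of at least 5 TPM, 13 were at least 1.5-fold higher and 2 lower, with a median log2 ratio of 0.35. For the 5309 listed genes at that level the shares were 33.4% and 12.4% and the median 0.27. Where the predicted tag lay in coding sequence, 7 of 15 members were at least 1.5-fold higher and 2 lower (median log2 ratio 0.44), against 8 and 3 of the 48 with a 3' UTR tag (median 0.26). The part of tag position in these values was not tested.

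The ratio of 2 genes within a library does not depend on how the libraries are scaled. The following 6 pairs of related genes were chosen after their values were seen. Prpf8 had 12.3 times the TPM of its U5 partner Eftud2, the GTPase of the U5 snRNP, in the normal and 3.66 times in the diabetic library, a ratio 3.38-fold lower (interval 2.36 to 4.87). Relative to Snrnp200, the U5 helicase that unwinds U4 from U6, Prpf8 went from 5.84 to 2.83 times (2.07-fold lower, interval 1.56 to 2.74). The 3 central U5 proteins were thus read at different proportions in the 2 libraries. Hnrnpm stood at 0.219 times Hnrnph1 in the normal and 0.627 times in the diabetic library (2.87-fold higher, interval 2.19 to 3.77). Prpf38b went from 0.243 to 0.634 times Prpf38a (2.61-fold higher, interval 1.7 to 4.03), and Sfrs6 from 2.12 to 3.98 times Sfrs4 (1.87-fold higher, interval 1.51 to 2.32). Snrnp70, the U1 protein that binds U1 RNA, went from 2.43 to 9.69 times Luc7l, a U1-associated protein of 5' splice site choice (3.98-fold higher, interval 2.8 to 5.67).

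Other genes of splicing that the rule does not take were grouped by role into 7 lists. Of the 117 listed genes on them, 34 (29.1%) were at least 1.5-fold higher in the diabetic library, against 34.4% of all genes, and 14 (12.0%) lower, against 15.3%, with a median log2 ratio of 0.16. Examples were taken from genes averaging 5 TPM or more, so a list can hold lower-level genes further out. Among 16 listed of 25 other snRNP and associated proteins, here the U1 and U4/U6.U5 list, 6 were higher (2 or 3 under the 4 other scalings) and 3 lower (median 0.11). These counts include Snrnp35 (higher, log2 0.89) and Snrnp48 (lower, log2 −1.03), which belong to the minor U11/U12 snRNP. Its ends at that level were Luc7l at 9.92 and 5.18 TPM (−0.94) and Snrnp70 at 24.13 and 50.19 TPM (1.06). Eftud2 was at 5.16 and 8.59 TPM (0.74) and Snrnp200 at 10.9 and 11.1 TPM (0.03, below 0 under each of the 4 scalings). Of 9 listed of 15 other 3' splice site and branch point proteins, 4 (44.4%, all genes 34.4%) were higher (2 under the 4 other scalings) and 0 lower (all genes 15.3%, median 0.56). They ran from Sf1, the branch point binding protein, at −0.27 to Puf60, a partner of U2AF, at 9.73 and 22.65 TPM (1.22). Of 20 listed of 28 Prp19 complex and catalytic step proteins, 6 were higher and 1 lower (3 or 4 lower under the 4 other scalings, median 0.14), from Snw1 at −0.76 to Syf2 at 2.33 and 11.4 TPM (2.29, interval 1.66 to 2.97).

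Downstream and regulatory genes were as mixed, to be read beside 34.4% of all listed genes higher and 15.3% lower. Of 18 listed of 26 exon junction complex and mRNA export genes, 4 were higher and 1 lower (4 lower under the 4 other scalings, median 0.08), with the exon junction core subunit Magoh at 19.07 and 10.88 TPM (−0.81) and the export helicase Ddx39 at 4.28 and 8.51 TPM (0.99). Of 7 listed of 9 kinases that phosphorylate SR proteins, 1 was higher (0 under the 4 other scalings) and 2 lower (median 0.18). Clk2 was at 10.12 and 15.84 TPM (0.65) and Srpk1 at 6.32 and 7.11 TPM (0.17, below 0 under each of the 4 scalings). The 2 lower kinases, named after their values were seen, were Dyrk1a at 57 and 22 reads (−1.77, interval −2.55 to −1.04), the lowest log2 ratio of the 117 genes, and Pim1 at 20 and 12 reads (−1.13, interval −2.30 to −0.03). Among 37 listed of 55 other splicing regulators, 8 were higher and 7 lower (11 or 12 lower under the 4 other scalings, median 0.03). Their ends were Khdrbs3, an RNA-binding protein of the STAR family, at 3.11 and 11.03 TPM (1.83), and Tra2a, an SR-like splicing activator, at 46.7 and 17.47 TPM (−1.42, interval −1.65 to −1.19). The SMN complex and its helpers load the Sm ring onto snRNAs, and of 10 listed of 16 such genes 5 were higher and 0 lower (median 0.46). Under the 4 other scalings 4 were higher and 3 lower, with medians of 0.15 to 0.21. All listed genes then had 21.9% to 24.0% higher and 23.6% to 25.6% lower. Sip1, the SMN partner now named Gemin2, was at 7.1 TPM (73 reads) and 20.36 TPM (275 reads), 1.52 higher on the log2 scale (interval 1.14 to 1.91), and the methyltransferase Prmt5 was at 10.31 and 7.48 TPM (−0.46).

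**Figure D4:**
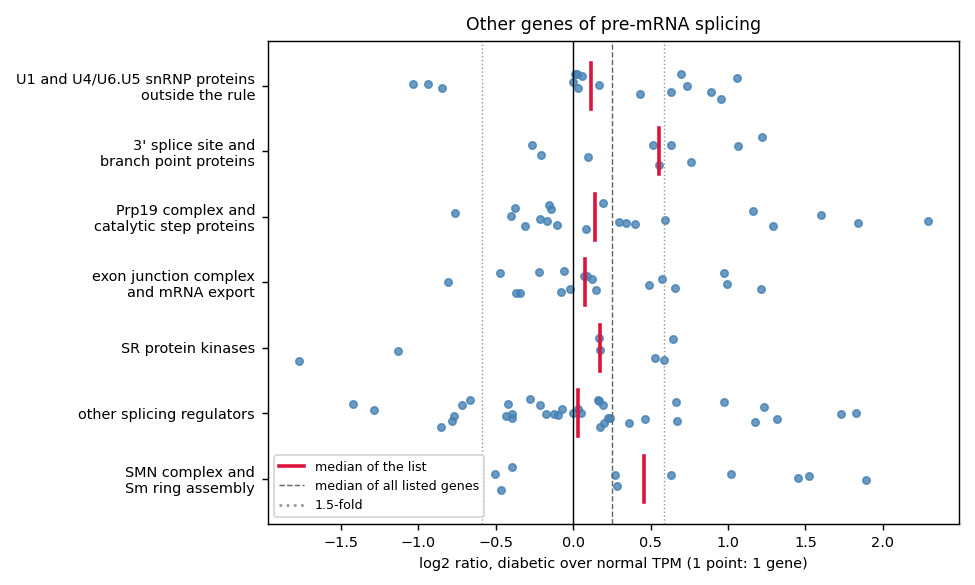
Log2 ratio of diabetic to normal TPM for the 117 listed splicing genes outside the rule, 1 point per gene in 7 lists, with the median of each list in red. The list labelled U1 and U4/U6.U5 snRNP proteins also holds Snrnp35 and Snrnp48 of the minor U11/U12 snRNP. The dashed line is the median of all listed genes (0.25), the dotted lines are 1.5-fold, and the list medians run from 0.03 for other regulators to 0.56 for 3' splice site and branch point proteins.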

How the data were processed

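Poly(A) liver RNA was read as DpnII tags in 1 library for each group. The authors trimmed adaptors, matched the high-quality clean tags to RefSeq and deposited RPM values, which they call TPM, with 0.01 TPM in place of 0 and genes with a mean under 1 TPM left out. Their processing notes name the build mm9. The aligner and the handling of shared tags are not given in the sources used here. Of the columns with values for a sample, 0 were left unused.

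Reads were recovered from the equal steps between values (tolerance 0.005 TPM; 8513 of 8513 and 8536 of 8537 values came out whole). Fold changes used the deposited values with no pseudocount. A gene counted as higher or lower from 1.5-fold, and the FDR rested on an exact binomial test, two-sided, with Benjamini-Hochberg adjustment over 8551 genes. The members, families and lists were chosen with earlier results of these data known. Values are given for the 10 highest and 10 lowest members averaging 5 TPM or more, the ends of each family and list at that level, core subunits, and members near 1.5-fold; other members were described after their values were seen. Single values of 1 member are not reported here, and it enters counts, medians and sums only. Alternatives were 4 scalings (sum of listed genes, TMM, median ratio, upper quartile), pseudocounts of 0.1 and 1 TPM, a mean of at least 5 TPM, a 2-fold threshold, the exact test and, added after the data were seen, the counting interval against the all-gene median. Predicted tags came from GENCODE transcripts, and all 63 members matched a RefSeq gene entry. The code was tested on simulated reads. All steps ran in Python 3.11.15 with pandas 2.3.3, scipy 1.17.1 and numpy 2.4.6, and plots were drawn with matplotlib 3.10.9.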

Additional observations from a re-analysis of the deposited data

How the results depend on the processing

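No paired analysis was possible because each group has 1 library. Among 242 values of 35 named members under the alternatives, 203 stayed within their counting interval, 39 moved outside it and 0 turned a member past 1.5-fold to the other sign. That 0 was fixed in advance, since the scalings shift each log2 ratio by only 0.25 to 0.31 and a pseudocount cannot change a sign. The filter on the mean leaves a single ratio as it is, so its values could not move. All 39 that moved outside did so under the 4 scalings. With scaling by the listed genes' sum, TMM, the median ratio or the upper quartile, 9, 9, 8 and 9 of the 63 members were at least 1.5-fold higher and 8 lower each time, and the members' median log2 ratio was 0.0088, 0.016, −0.037 and 0.00. Under these 4 scalings 1 LSm gene, 1 Sm gene, 0 SF3 genes, 0 SR-related genes and 0 SR kinases were higher, 1 LSm gene and 2 SR genes were lower, and under the median ratio 0 SR genes were higher. The medians became 0.36, 0.37, 0.32 and 0.35 for Sm genes, 0.20, 0.21, 0.15 and 0.19 for the SMN list, −0.084, −0.077, −0.13 and −0.093 for SR kinases, and −0.23, −0.22, −0.27 and −0.24 for other regulators. Higher genes numbered 3, 3, 2 and 3 in the U1 and U4/U6.U5 list and 2 in the 3' splice site list, and lower genes 3, 3, 4 and 3 in the Prp19 list, 4 in the export list, 3 in the SMN list and 11, 11, 12 and 11 among other regulators.

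With a pseudocount of 1 TPM, 3 members were lower, of which 1 was a PRPF gene (also 1 with 0.1 TPM) and 1 SR-related, 0 SR-related genes were higher, and 3 of the U1 and U4/U6.U5 list were higher. At a mean of at least 5 TPM, 2 members were lower (1 PRPF, 0 SR-related), 0 SR genes and 1 Sm gene were higher, 2 export genes were higher, and 0 SR kinases were lower, with a median of 0.53. At 2-fold, 5 members were higher and 1 lower. Those higher were 1 LSm gene and 4 hnRNPs, with 0 PRPF, SF3, SR, SR-related, Sm and U2 snRNP genes, and the 1 lower was a PRPF gene, with 0 SR and 0 SR-related genes. At 2-fold the lists had 0 SR kinases, 1 gene of the U1 and U4/U6.U5 list and 1 export gene higher. Also higher were 2 of the 3' splice site list and 5 other regulators. Lower at 2-fold were 0 Prp19 and export genes, 2 other regulators and 1 gene of the U1 and U4/U6.U5 list, the U11/U12 gene Snrnp48. With the exact test, 2 members were lower (1 PRPF, 0 SR-related), and 1 LSm, 1 Sm, 0 SR and 0 SR-related genes were higher. In the lists 3 Prp19 genes, 1 of the U1 and U4/U6.U5 list and 2 of the 3' splice site list were then higher and 1 SR kinase was lower. By the counting interval against the all-gene median, 12 members were lower. With 13 to 1995 reads per member, ratios of the shallowest genes spanned 0, and differences between mice could not be seen at all.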

Other observations

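Some close relatives among the other splicing regulators had log2 ratios of different sign, in values chosen after they were seen and without a test. Ewsr1, an RNA-binding protein, was at 25.49 TPM (262 reads) in the normal and 59.96 TPM (810 reads) in the diabetic library (log2 1.23, interval 1.03 to 1.44). Its relative Taf15 was at 18 TPM (185 reads) and 9.99 TPM (135 reads), with a log2 ratio of −0.85 and an interval of −1.18 to −0.52. The transformer-2 genes differed in the same manner, Tra2a at −1.42 and Tra2b at 16.25 and 22.43 TPM (0.47, interval 0.19 to 0.75). Of the cold-inducible RNA-binding proteins, Cirbp was at 13.33 TPM (137 reads) and 33.16 TPM (448 reads), a log2 ratio of 1.31 (interval 1.04 to 1.60). Rbm3 had 25 and 27 reads and a log2 ratio of −0.28, with an interval of −1.12 to 0.56 that spanned 0.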
